A study of Homo sapiens with 8 samples.

Results

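Divergent promoters are stretches of DNA that lie between 2 genes transcribed away from each other, so that the same stretch holds the start of both. The members described here were the array probes annotated as divergent promoter, grouped by the pair of gene symbols they carry. They formed 1472 regions with 12026 probes, out of 44006 groups of probes with the same gene name and annotation on the arrays. SMAD3 binding was measured by chromatin immunoprecipitation and promoter arrays (ChIP-on-chip) in A549 cells, a human lung adenocarcinoma line used as a model of alveolar epithelium, so every value comes from 1 tumor line. Serum-starved cells were left unstimulated (the basal level) or were stimulated with 2 ng/ml TGFβ1 for up to 2 h, with 2 biological replicates per condition. The study's own text also gives a shorter stimulation for these arrays, so the exact time is uncertain. Each replicate was hybridised to 2 slides that carry different probes. On each of the 8 arrays the SMAD3 immunoprecipitate (IP) was read against a mock IP made with an anti-FLAG antibody from the same condition, and a value here is log2 (SMAD3 IP / mock IP), centred on the median of its array. A value of 0 thus marks the middle of the array, and a region was summarised by the mean of its probes.

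TGFβ1 binds its receptors at the cell surface, the receptors phosphorylate SMAD3, and SMAD3 moves to the nucleus with SMAD4, where it binds short sequences in promoters and enhancers, often beside other factors such as AP-1. Pairs of genes with a shared promoter are common in the human genome. They are rich in housekeeping functions such as DNA repair, RNA processing, translation and mitochondrial metabolism, and their promoters are usually rich in CpG, lack a TATA box and often hold sites for ETS factors and NF-Y. A factor bound between 2 such starts cannot be assigned to either gene from its position alone.

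The 1472 regions named 2942 different genes. Current RefSeq named 2203 of them by the same symbol and 601 by an older symbol, and promoter windows were found for 2282. Both genes of 955 regions had a RefSeq window (64.9%), and in 955 of these the genes lay on opposite strands. The 2 starts pointed away from each other without overlap in 875 regions (91.6%), and in 80 the present starts were not in this order. Every pair that could be looked up was thus on opposite strands, but not every pair was divergent by order. In 703 of the 875 (80.3%) the RefSeq distance between the starts was within 500 bp of the annotated one. The annotated distance between the 2 starts had a median of 2251 bp and ranged from 15 to 17972 bp. In 602 regions (40.9%) it was at most 1000 bp.

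Close starts left room for few probes. Regions held a median of 5 probes and 1 to 54, and 961 regions kept at least 3 probes and were tested. Another 508 had 1 or 2 probes, and 3 had no probe left after outliers were removed. The starts of the tested regions were a median of 4875 bp apart and those of the regions with 1 or 2 probes 220 bp apart, so the most compact divergent promoters were mostly outside the tested set. Of the tested regions, 410 (42.7%) had at least 2 probes, and no fewer than the others, well above background in both channels on all arrays. Such regions are called well measured. In 97 tested regions no probe reached this level. Per array, the mock channel was well above background at 47.0% to 60.8% of all probes and the SMAD3 channel at 41.7% to 54.4%. Replicates of the same condition correlated closely over the 961 regions (Pearson r of 0.93 and 0.94), and pairs of replicates from different conditions correlated at 0.24 to 0.28. The treatment and other steps that the replicates of a condition may have shared cannot be told apart in this gap.

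Sequences are shown for 6 promoters from the regions described below, because they stood beside stretches of 7 neighbouring probes with a raised ratio after TGFβ1 (MPG and SLC27A1), SMAD3 signal over mock in both conditions (CBX3 and MFSD11), the largest fall after TGFβ1 (RNF31) or a TGFβ ligand (TGFB3). They are RefSeq windows on GRCh38.p14 from 250 bases before to 50 after the gene's present start, printed 5′ to 3′ on the gene's strand. That start can differ from the one the arrays used. Capitals mark the SMAD box CAGAC, the AP-1 site TGACTCA, the CCAAT box and the ETS core CCGGAA, each on either strand. TGAGTCA is the reverse of TGACTCA, so both name the same site.
MPG (chr16:77975-78274, plus strand): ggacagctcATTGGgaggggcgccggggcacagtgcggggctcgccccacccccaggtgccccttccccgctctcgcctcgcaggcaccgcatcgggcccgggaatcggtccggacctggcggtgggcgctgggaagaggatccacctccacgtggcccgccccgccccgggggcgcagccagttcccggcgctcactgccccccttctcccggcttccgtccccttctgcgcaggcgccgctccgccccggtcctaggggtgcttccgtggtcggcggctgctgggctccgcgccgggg
SLC27A1 (chr19:17470274-17470573, plus strand): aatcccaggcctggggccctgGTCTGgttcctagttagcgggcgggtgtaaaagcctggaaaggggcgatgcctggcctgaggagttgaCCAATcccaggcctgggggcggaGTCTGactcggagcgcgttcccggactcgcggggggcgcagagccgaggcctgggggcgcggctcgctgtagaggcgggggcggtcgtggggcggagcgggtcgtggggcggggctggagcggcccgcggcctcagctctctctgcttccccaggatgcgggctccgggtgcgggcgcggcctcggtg
CBX3 (chr7:26201193-26201492, plus strand): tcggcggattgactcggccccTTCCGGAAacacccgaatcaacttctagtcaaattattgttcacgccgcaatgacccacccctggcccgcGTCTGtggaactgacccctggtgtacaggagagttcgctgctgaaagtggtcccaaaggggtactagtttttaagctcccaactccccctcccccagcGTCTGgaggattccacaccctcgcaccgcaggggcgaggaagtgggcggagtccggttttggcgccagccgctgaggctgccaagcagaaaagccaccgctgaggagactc
MFSD11 (chr17:76737869-76738168, plus strand): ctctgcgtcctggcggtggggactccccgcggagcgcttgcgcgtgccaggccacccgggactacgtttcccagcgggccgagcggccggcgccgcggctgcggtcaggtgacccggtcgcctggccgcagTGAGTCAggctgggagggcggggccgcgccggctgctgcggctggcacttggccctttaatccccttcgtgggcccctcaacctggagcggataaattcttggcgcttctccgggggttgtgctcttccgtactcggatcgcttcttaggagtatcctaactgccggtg
RNF31 (chr14:24146625-24146924, plus strand): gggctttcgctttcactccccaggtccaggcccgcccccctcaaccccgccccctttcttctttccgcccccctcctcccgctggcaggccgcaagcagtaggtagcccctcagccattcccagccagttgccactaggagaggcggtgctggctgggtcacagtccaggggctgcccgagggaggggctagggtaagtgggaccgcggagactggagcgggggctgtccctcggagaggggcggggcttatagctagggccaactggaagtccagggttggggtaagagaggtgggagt
TGFB3 (chr14:75982962-75983261, minus strand): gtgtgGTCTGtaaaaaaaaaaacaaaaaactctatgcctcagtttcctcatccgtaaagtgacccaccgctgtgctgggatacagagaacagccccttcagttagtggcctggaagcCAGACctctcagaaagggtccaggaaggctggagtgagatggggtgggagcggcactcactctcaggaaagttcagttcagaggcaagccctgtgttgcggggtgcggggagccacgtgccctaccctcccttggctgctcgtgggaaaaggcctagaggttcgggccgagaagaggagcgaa
The SLC27A1, CBX3 and TGFB3 windows each held 2 copies of the SMAD box, and the MPG, MFSD11 and RNF31 windows held 0. The GC-rich SMAD motif GGCGC is not marked in the sequences. It stood 8 times in the MPG window, 4 in MFSD11, 3 in SLC27A1, 2 in CBX3 and 0 in RNF31 and TGFB3. The MFSD11 window held an AP-1 site, and the MPG and SLC27A1 windows each held 1 CCAAT box. The CBX3 window held 2 overlapping copies of the ETS core, and the RNF31 window none of the motifs.

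The SMAD box was not more frequent in the windows of divergent genes than in those of all protein-coding genes, a set that includes divergent genes. CAGAC was present on either strand in 42.6% of their 2282 windows, in 44.1% of the 15842 windows of all protein-coding genes and in 45.0% of all 27305 windows. The palindromic SMAD element GTCTAGAC was found in 0.0876% of divergent windows and 0.221% of protein-coding windows. It stood in 0.251% of the 796 windows from pairs with starts within 1000 bp and in 0% of the 954 from wider pairs. The divergent shares rest on very few windows. The GC-rich SMAD motif GGCGC was present in 69.8% against 62.6%. The ETS core CCGGAA stood in 33.7% of divergent windows against 22.9% of protein-coding windows, and in 44.1% of the 796 windows from pairs with starts within 1000 bp. CCAAT stood in 40.3% against 36.4%, and in 47.0% of these compact pairs. The AP-1 site was rarer, at 3.24% against 3.66%, and 1.76% in the compact pairs. The median GC content was 63.3% for divergent genes, 63.7% for the compact pairs among them and 62.7% for protein-coding genes. These shares describe the letters of fixed windows and were not tested.

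At the basal level, SMAD3 IP exceeded mock IP at 76 of the 961 tested regions (7.91%), against 4.77% of all 31867 groups of probes tested and 3.63% of single-gene promoters. A region was called when limma's test of the mean against 0 gave a Benjamini-Hochberg adjusted p under 0.05 over all groups and the mean ratio exceeded 1.5. After TGFβ1, 60 regions (6.24%) were called, against 3.59% of all groups and 2.90% of single-gene promoters. Signal also lay the other way. Mock IP exceeded SMAD3 IP by the same rule at 266 regions (27.7%) at the basal level, against 25% of all groups, and at 316 (32.9%) after TGFβ1, against 28.8%. Loess normalization within each array turned this split. It gave 150 regions with SMAD3 over mock and 130 with mock over SMAD3 at the basal level, and 151 and 141 after TGFβ1. With normexp background correction the numbers were 9 and 15, and 36 and 56. Which side of 0 most called regions lie on therefore depends on the normalization.

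Regions whose 2 starts lie close together were called for SMAD3 more often than those with wider starts. Among the tested regions, 42 of the 148 with starts within 1000 bp had SMAD3 over mock at the basal level (28.4%), and 34 of the other 813 (4.18%). After TGFβ1 the numbers were 30 (20.3%) and 30 (3.69%). Mock over SMAD3 was called at 39 of the same 148 regions at the basal level and at 37 after TGFβ1. Compact regions made up 14.7% and 11.7% of all such mock calls, against 15.4% of the tested regions. When regions with 1 or 2 probes were also admitted, a choice made after seeing the data, 238 of 1469 regions were called at the basal level (16.2%, against 5.64% of 34298 groups) and 213 after TGFβ1 (14.5%, against 4.43%). These 34298 groups leave out those annotated as Unknown, a filter not applied to the groups of at least 3 probes. By class, 35.2% of the 474 regions with starts up to 500 bp apart were called at the basal level, 26.4% of those at 500 to 1000 bp, 14.7% at 1000 to 2000 bp and 2.07% to 4.60% in the 3 wider classes.

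**Figure D1:**
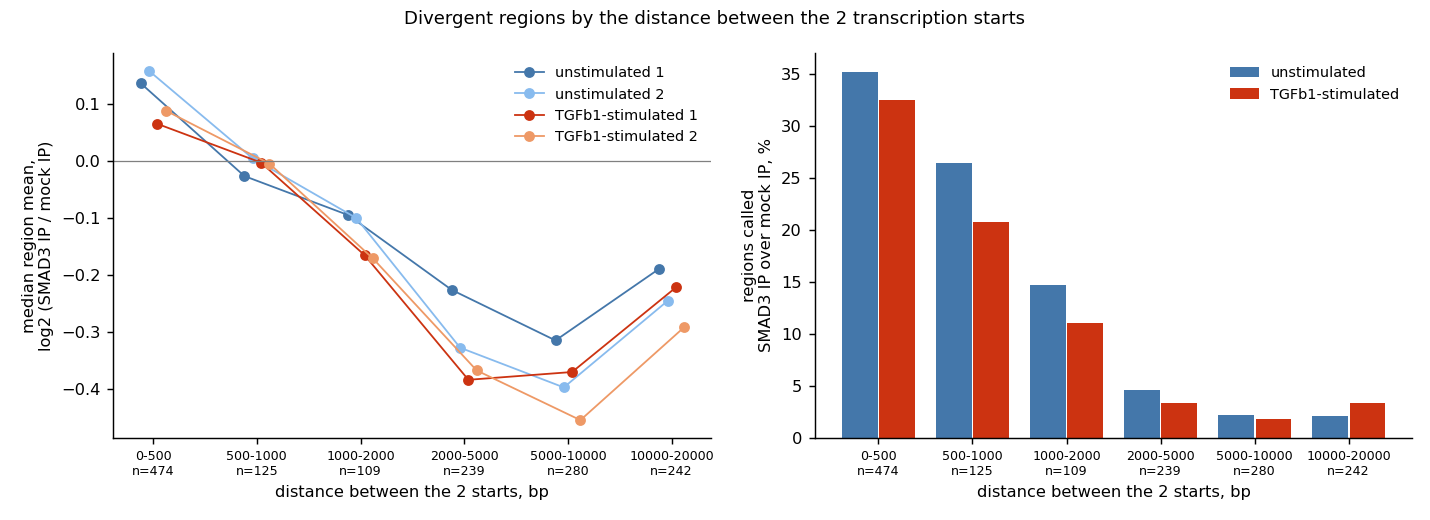
Left, median over divergent regions of the region mean log2 (SMAD3 IP / mock IP), by the distance between the 2 starts in bp, for each of the 4 replicates. Right, percent of the regions in each class called SMAD3 IP over mock IP in each condition. Both panels use regions of 1 or more probes. The class up to 500 bp has medians of 0.07 to 0.16 and the highest shares called.

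The 4 replicates showed the same order. Here too regions of 1 or more probes were used, the choice made after seeing the data. The median of the 599 regions with starts within 1000 bp was 0.09 and 0.11 unstimulated and 0.04 and 0.06 stimulated. Of these 599, 148 had at least 3 probes. The median of the 870 regions with wider starts was -0.24, -0.32, -0.32 and -0.36. The difference was 0.39 ± 0.046 (SD, n = 4) and above 0 in 4 of 4 replicates, with an exact two-sided sign-flip p of 0.125, the smallest that 4 replicates allow. It was 0.59 ± 0.088 with loess and 0.11 ± 0.11 with normexp (SD, n = 4). Signal strength moved with the distance. In compact regions up to 500 bp, 70.3% of probes were well above background in both channels on all arrays, and in regions over 10000 bp 25.7%. Over probes well above background in both channels alone, the difference was 0.76 ± 0.077 (SD, n = 4).

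Single probes gave the same picture from the nearer start outwards. Of the 1259 divergent probes within 100 bp of a start, 35.3% to 36.9% per replicate exceeded a ratio of 1.5. The share was 23.2% to 25.1% between 100 and 250 bp, and 6.68% to 8.46% between 2000 and 5000 bp. Ratios more than 1.5-fold towards mock were held by 26.4% to 31.1%, 33.4% to 37.3% and 27.2% to 30.2% of the probes in these classes, in the same order. For ratios over 1.5, single-gene promoters had the same shape, with 30.6% to 33.0% of 7573 probes within 100 bp and 6.77% to 8.18% between 2000 and 5000 bp. Both channels were brightest near the start. The median log2 mock signal of divergent probes within 100 bp was 2.30 to 3.15 above the array median, and the SMAD3 signal 3.01 to 3.84 above it.

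A direct comparison with single-gene promoters showed a small difference whose sign depended on the normalization. The median of divergent regions minus that of single-gene promoters was -0.03 and -0.02 in the unstimulated and -0.07 and -0.04 in the stimulated replicates. The mean was -0.041 ± 0.022 (SD, n = 4), with an exact sign-flip p of 0.125. The exact permutation test between conditions gave p = 0.333, the smallest that 2 against 2 replicates allow. With loess the difference was 0.020, and with normexp 0.0053.

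SMAD3 exceeded mock in both conditions at 23 regions (2.39%, against 1% of all groups tested). They were 30.3% of those called at the basal level and 38.3% of those called after TGFβ1, and 21 were well measured. The pairs were mostly compact, with 17 of 23 starts within 1000 bp and a median of 637 bp, against 148 of 961 and 4875 bp over the tested regions. Of those named here, EXOSC5-BCKDHA, MCM7-AP4M1, HRAS-LRRC56, MMS19L-UBTD1, FLJ45983-GATA3, CHPF-MGC99813, EXDL1-CHP and MYOHD1-PIGW were chosen after their values were seen. The region between EEF1D, a subunit of translation elongation factor 1, and TIGD5, a gene derived from a transposase, had the highest mean. It measured 2.66 and 2.52 in the unstimulated and 2.46 and 2.18 in the stimulated replicates. All 4 probes of the 637 bp between its starts were well above background, and each of them had a positive ratio in all replicates. MGC14376-WDR81 came next at the basal level, at 2.15 and 2.11 and then 1.05 and 1.74, with a change of -0.74 ± 0.23 (SE, limma adjusted p = 0.0466).

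**Figure D2:**
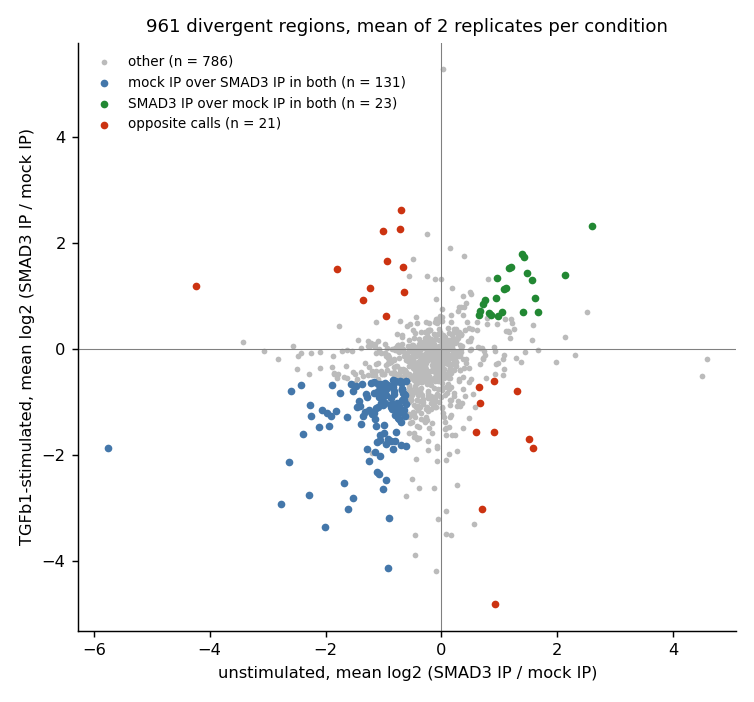
Mean log2 (SMAD3 IP / mock IP) of the 961 tested divergent regions, unstimulated on the horizontal axis and TGFβ1-stimulated on the vertical axis, each the mean of 2 replicates. Green points are the 23 regions with SMAD3 over mock in both conditions, blue the 131 with mock over SMAD3 in both, and red the 21 with opposite calls.

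RNA processing genes were among these pairs. The SFRS2-MFSD11 region on chromosome 17 holds the start of the splicing factor SRSF2 (SFRS2), and its starts are 370 bp apart. It measured 1.44 and 1.80 unstimulated and 0.83 and 1.11 stimulated, so the conditions did not overlap, and the change of -0.65 ± 0.17 (SE) had a limma adjusted p of 0.0272. It rested on 1 of 3 probes, without which the mean change was 0.022. HNRPA2B1, an RNA-binding protein of splicing and transport, shares its region with CBX3, the heterochromatin protein HP1γ. That region measured 1.33 and 1.51 and then 1.85 and 1.61, without overlap between conditions, but the change of 0.31 ± 0.13 (SE) did not pass (limma adjusted p = 0.114). The probe 68 bp from the HNRPA2B1 start carried the highest ratios of the 4, between 2.82 and 3.34. The EXOSC5-BCKDHA region lies between a subunit of the RNA exosome and a subunit of the branched-chain ketoacid dehydrogenase. It measured 1.20, 1.14, 1.33 and 1.74 in the same order of replicates.

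Replication, repair and growth genes stood beside them. MCM7, a subunit of the replicative helicase, and AP4M1, a subunit of a vesicle adaptor complex, share a region that measured 0.70 and 1.02 unstimulated and 0.91 and 0.38 stimulated. The conditions overlapped, and its change did not pass (limma adjusted p = 0.457). The MMS19L-UBTD1 region, where MMS19L encodes the iron-sulfur cluster assembly factor MMS19, measured 1.54 and 1.60 and then 1.11 and 1.48. The region of the small GTPase HRAS and LRRC56, 1976 bp wide with 8 of 10 probes well above background, measured 1.44 and 1.39 unstimulated and 0.71 and 0.70 stimulated. Its change of -0.71 ± 0.098 (SE) passed (limma adjusted p = 0.00296), although SMAD3 stayed over mock.

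Redox and developmental genes completed the group. HSPC152 encodes a methyltransferase cofactor and PRDX5 a peroxiredoxin. Their region fell from 1.46 and 1.88 to 0.54 and 0.84 (limma adjusted p = 0.00867). This fall rested on 1 of 4 probes, which changed by -4.16, and without it the mean change was 0.079. The region of the transcription factor GATA3 and FLJ45983 measured 1.35 and 0.55 and then 0.93 and 1.00, so its replicates differed more than its conditions. KIF9, a kinesin, and KLHL18, an adaptor of a cullin ubiquitin ligase, share 351 bp that measured between 1.27 and 2.16 in the 4 replicates. When loess, the median of the probes or only probes well above background in both channels was used in place of the main setting, 7 regions were called in both conditions under all 4 settings. These were EEF1D-TIGD5, KIF9-KLHL18, MMS19L-UBTD1, FLJ45983-GATA3, CHPF-MGC99813, EXDL1-CHP and MYOHD1-PIGW. With normexp only 2 regions were called in both conditions, of which 1 was among the 23.

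**Figure D3:**
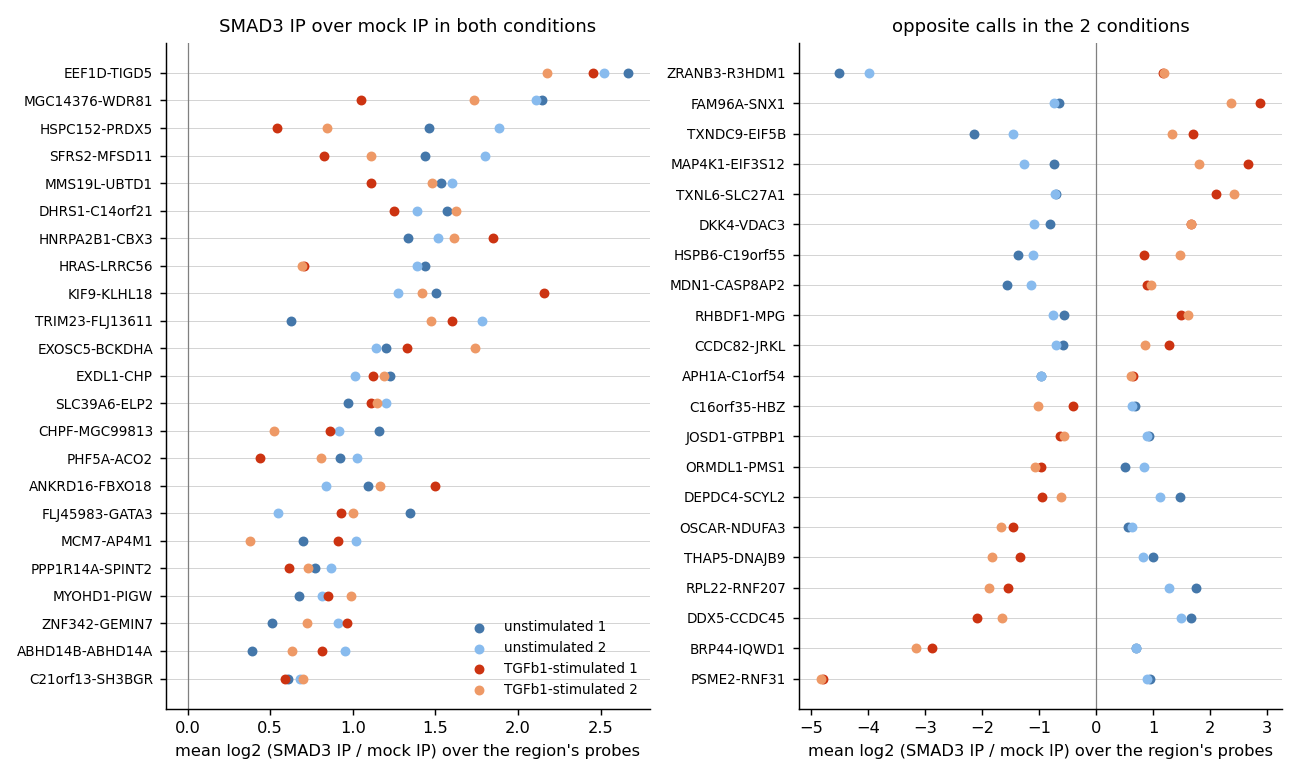
Region mean log2 (SMAD3 IP / mock IP) in each of the 4 replicates, for the 23 regions with SMAD3 over mock in both conditions (left) and the 21 with opposite calls (right). Each point is 1 replicate. EEF1D-TIGD5 lies highest on the left, and the replicates of a condition lie close together on the right while the conditions are on opposite sides of 0.

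Some of the highest basal ratios were absent after TGFβ1. CPXM1-C20orf141 measured 4.67 and 4.48 unstimulated and -0.20 and -0.16 stimulated. CPXM1 encodes a secreted carboxypeptidase-like protein. This mean rested on 2 of its 4 probes, those 5256 and 5421 bp from the CPXM1 start, with basal ratios of 9.20 and 9.25 and of 10.38 and 10.23. PASK-PPP1R7, which holds a nutrient-sensing kinase and a regulator of protein phosphatase 1, was measured more evenly. Its 7 probes were all well above background, and its mean was 1.71 and 1.62 unstimulated and -0.05 and 0.03 stimulated. The change of -1.67 ± 0.10 (SE) passed (limma adjusted p = 0.000229). The region's mock signal changed by 1.16 and its SMAD3 signal by -0.63, so the mock part was the larger. ALG3-MGC2408, with the start of a mannosyltransferase of N-glycan synthesis, measured 2.13 and 2.15 and then 0.11 and 0.36. Its mock signal changed by 0.43 and its SMAD3 signal by -1.59. Of its 3 probes 1 changed by -4.54, and without it the mean change was -0.59. FBXW5-C8G rested on 1 replicate, at 1.05 and 3.97 unstimulated, and without either of the stimulated replicates its basal level no longer passed (limma adjusted p = 0.0593 in both cases).

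Mock signal exceeded SMAD3 signal at other genes. In both conditions 131 regions were called this way (13.6%, against 11.9% of all groups tested), 49.2% of the basal and 41.5% of the stimulated calls. DCUN1D3-LYRM1, where DCUN1D3 takes part in cullin neddylation, was among the steadiest at -2.83 and -2.72 unstimulated and -2.97 and -2.88 stimulated. NAPSA, the aspartic protease of alveolar type II cells, shares its region with NR1H2, the oxysterol receptor LXRβ. That region measured -2.51 and -2.70 and then -0.93 and -0.67, a rise of 1.80 ± 0.14 (SE, limma adjusted p = 0.000421). Its mock signal changed by -2.55 and its SMAD3 signal by -0.68. RPS16-SUPT5H, between a protein of the small ribosomal subunit and the elongation factor SPT5, had 25 probes and rose from -2.55 and -2.32 to -0.60 and -0.74. Its mock signal fell by 3.27 on the log2 scale and its SMAD3 signal by 1.43, so the ratio rose while SMAD3 signal did not.

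After TGFβ1, 204 divergent regions were higher (21.2%, against 18.9% of all groups tested) and 271 were lower (28.2%, against 25.3%), by limma with Benjamini-Hochberg adjusted p under 0.05 over all groups. Both shares were near the background. The median change was -0.07 over the tested regions and -0.04 over all groups. Most of the called changes came with a larger move of the mock channel than of the SMAD3 channel. Among the 204 higher regions the median change was 0.78, the mock signal changed by a median of -0.72 and the SMAD3 signal by 0.09, and the mock part was the larger in 140. Among the 271 lower regions the medians were -0.87, 0.71 and -0.14, and the mock part was the larger in 183. Each called change is thus one of the ratio.

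Changes were carried by few probes. In 59 of the 204 higher regions and 96 of the 271 lower regions exactly 1 probe changed more than 4-fold in that direction, and in 125 and 158 regions 2 or more did. The median share of a region's probes that changed more than 2-fold in its direction was 33.3% in both groups. Leaving out the probe with the largest change kept the sign in 181 of 204 and 234 of 271 regions. When the median of the probes replaced the mean, 35 regions were higher and 41 lower, of which 31 and 37 were also called with the mean. A stretch of at least 3 neighbouring probes changed more than 4-fold in 46 higher and 54 lower regions.

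**Figure D4:**
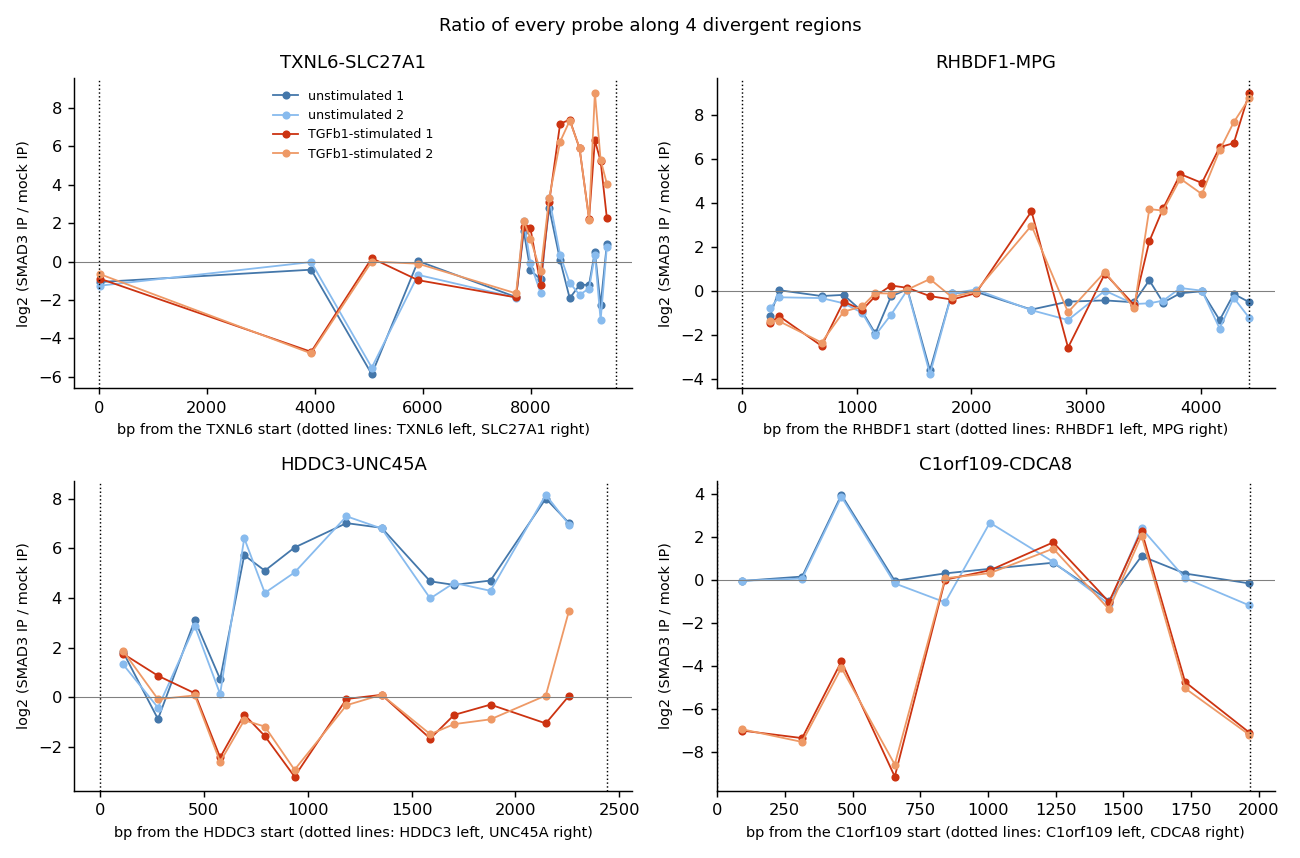
Log2 (SMAD3 IP / mock IP) of every probe along 4 divergent regions, by distance in bp from the start of the first gene, with dotted lines at both starts. Each line is 1 replicate, blue for unstimulated and red for TGFβ1-stimulated. The stimulated replicates of TXNL6-SLC27A1 and RHBDF1-MPG rise next to the right-hand start, whereas in HDDC3-UNC45A the unstimulated replicates are high and in C1orf109-CDCA8 the stimulated replicates fall.

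In RHBDF1-MPG the SMAD3 channel itself rose. RHBDF1 encodes an inactive rhomboid protein and MPG the DNA glycosylase that removes alkylated purines. Of its 22 probes 18 were well above background, and the mean was -0.57 and -0.75 unstimulated and 1.49 and 1.60 stimulated. The rise of 2.21 ± 0.12 (SE) passed (limma adjusted p = 0.000152), with a change of 2.61 in the SMAD3 and 0.33 in the mock channel. The 7 probes nearest MPG all rose more than 4-fold, and the rise was largest at the start.

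The probe 1 bp from the MPG start gave the highest value. Its ratio was -0.51 and -1.22 unstimulated and 9.02 and 8.76 stimulated. Its SMAD3 signal was 217 and 137 unstimulated and 182652 and 143303 stimulated, while its mock signal was 207, 216, 213 and 205. The probes 137 and 260 bp away had stimulated ratios of 6.72 and 7.67 and of 6.54 and 6.39, and the probe 603 bp away 5.31 and 5.11. Between 1006 and 3380 bp from the MPG start the stimulated ratios lay between -2.57 and 0.87, except at the probe 1902 bp away, which had 3.62 and 2.98. With the median of the 22 probes the change was 0.47 and did not pass (limma adjusted p = 0.119), and with normexp it was 1.40 (adjusted p = 0.0791).

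TXNL6-SLC27A1 showed the same form. SLC27A1 encodes a transporter of long-chain fatty acids, and TXNL6 a thioredoxin-like protein of photoreceptors. The region measured -0.71 and -0.72 unstimulated and 2.10 and 2.42 stimulated, a rise of 2.97 ± 0.14 (SE, limma adjusted p = 0.00012). The SMAD3 channel changed by 3.02 and the mock channel by -0.02. The 7 neighbouring probes between 168 and 1034 bp from the SLC27A1 start rose more than 4-fold in the mean of the replicates, and the probe 856 bp away went from -1.91 and -1.11 to 7.38 and 7.33. Nearer the TXNL6 start the probe 18 bp away stayed between -1.26 and -0.65 in all replicates, while of the probes in between 1 fell from -0.42 and -0.03 to -4.70 and -4.78 and 1 rose from -5.86 and -5.52 to 0.17 and 0.00. With normexp the change was 1.73 (adjusted p = 0.0814).

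Other regions turned from mock to SMAD3 as well, 11 in all (1.14%, against 0.546% of all groups tested). MAP4K1-EIF3S12, with a kinase of immune cells and a subunit of translation initiation factor 3, went from -0.75 and -1.27 to 2.66 and 1.80. The SMAD3 channel changed by 4.19 and the mock channel by 0.88, but with the median of the probes the stimulated level was -0.08. HSPB6-C19orf55, with the small heat shock protein HSP20, went from -1.37 and -1.10 to 0.83 and 1.48, with 1.40 in the SMAD3 and -1.06 in the mock channel. ZRANB3-R3HDM1, outside the naming rule and chosen after its values were seen, had the largest rise, from -4.51 and -3.98 to 1.18 and 1.19, but only 1 of its 3 probes was well above background on all arrays. There the mock channel fell by 6.17 and the SMAD3 channel by 0.86.

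The opposite turn, from SMAD3 to mock, was seen at 10 regions (1.04%, against 0.916% of all groups tested). PSME2, a subunit of a proteasome activator, and RNF31, the catalytic subunit of the linear ubiquitin ligase, share 803 bp that went from 0.95 and 0.89 to -4.78 and -4.83. The change of -5.73 ± 0.0996 (SE, limma adjusted p = 4.65e-05) was the lowest of the 961 tested divergent regions. On the region mean it lay in the mock channel, which rose by 5.70, while the SMAD3 channel changed by 0.04. The ratio fell at all 4 probes, but the SMAD3 signal fell at some and rose at others. At the probe 686 bp from the PSME2 start it was 1250 in the first unstimulated and 4040 in the first stimulated replicate. The probe 94 bp from the PSME2 start read 3004 in the mock channel of the first unstimulated replicate and 12602 in that of the first stimulated replicate, and its SMAD3 signal was 16092 and 2826.

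DDX5-CCDC45, with an RNA helicase of transcription and splicing, went from 1.66 and 1.49 to -2.09 and -1.64, with a mock change of 3.37 and a SMAD3 change of 0.00. BRP44-IQWD1, where BRP44 is a subunit of the mitochondrial pyruvate carrier, went from 0.70 and 0.70 to -2.88 and -3.17, and here the SMAD3 signal rose by 2.22 and the mock signal by 6.06. C1orf109-CDCA8, which was not called at the basal level and is not 1 of the 10, holds the start of borealin, a subunit of the chromosomal passenger complex. It went from 0.54 and 0.58 to -3.24 and -3.35 over 11 probes, with a mock change of 4.75 and a SMAD3 change of 0.78. The fall lay at both ends of the 1966 bp, whereas the 5 probes between 842 and 1567 bp from the C1orf109 start had stimulated ratios of -1.36 to 2.29. With the highest mean of 3 neighbouring probes its change was 0.35.

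The longest stretch of neighbouring probes that fell together lay in HDDC3-UNC45A, which was picked after its values were seen. UNC45A is a chaperone of myosin and HDDC3 a nucleotide hydrolase. In 12 neighbouring probes of 14 the ratio fell more than 4-fold. The region mean was 4.60 and 4.40 unstimulated and -0.62 and -0.41 stimulated. The probe 1187 bp from the HDDC3 start read 8556 and 8420 in the SMAD3 channel of the unstimulated and 85.1 and 66.6 in that of the stimulated replicates. Only 5 of the 14 probes were well above background in both channels on all arrays. NDRG2-TPPP2, picked in the same way, had the longest rising stretch, with 9 probes between 643 and 1910 bp from the start of NDRG2, a gene of the N-myc downstream regulated family. There the mock signal was high at the basal level. It read 15188 and 9040 at the probe 959 bp from the start, and 113 and 210 after TGFβ1.

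Among the other largest levels and changes, several regions moved through 1 channel. TM2D2-ADAM9, with a cell-surface metalloprotease, rose from 0.10 and 0.19 to 1.77 and 2.02 with all 3 probes well above background, and its SMAD3 signal changed by 1.51 and its mock signal by -0.12. PPP1R10-MRPS18B, with a regulator of protein phosphatase 1, rose from 0.41 and 0.36 to 1.95 and 1.56, with a SMAD3 change of 1.88 and a mock change of 0.62. LRRC34-LOC344657 rose from -1.03 and 0.06 to 1.95 and 1.43, and without stimulated replicate 1 neither its level (limma adjusted p = 0.0589) nor its change (0.059) passed. Its rise rested on 1 of 3 probes, which changed by 9.94, and without it the mean change was -1.71. The regions TOM1L2-LRRC48, KIAA1086-ATCAY, LOC646174-CLUAP1, ART5-ART1 and DCTN2-KIF5A fell, with changes of -4.09, -3.14, -3.13, -2.29 and -1.36, and in each the mock signal rose, by 4.21, 2.13, 2.93, 2.62 and 2.07. At the basal level, CCDC78-HAGHL measured -3.68 and -3.16, SDF2-SUPT6H -2.70 and -2.25 and HRC-TRPM4 -2.56 and -2.22. CCDC78-HAGHL and SDF2-SUPT6H rose after TGFβ1, with changes of 3.55 and 2.34, and HRC-TRPM4 did not pass (limma adjusted p = 0.0605). In both of the rising regions the mock signal fell, with changes of -4.38 and -4.08, and the SMAD3 signal changed by -0.76 and -1.67. LONP1-TMEM146, with a mitochondrial protease, rose from -1.94 and -1.59 to 0.22 and 0.64 while its mock signal fell by 3.55 on the log2 scale. ETHE1-ZNF575 fell from -2.28 and -2.30 to -2.85 and -2.67 (limma adjusted p = 0.0193), and ZNF232-USP6 rose from -2.80 and -2.45 to -2.09 and -2.19 (limma adjusted p = 0.0436). The ZNF232-USP6 rise rested on 1 of 4 probes, without which the mean change was -0.41.

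TGFβ pathway genes were few among the divergent pairs, and none of them was called for SMAD3 over mock in either condition. The list held 3 regions, all tested, and 0 were well measured, so dim probes weigh on their means. TGFB3, a TGFβ ligand, shares 4635 bp with C14orf179. The region measured -0.17 and -0.36 unstimulated and -0.72 and -0.38 stimulated, and its change of -0.28 ± 0.15 (SE) did not pass (limma adjusted p = 0.195). For LTBP3, which holds latent TGFβ in the matrix, the study reports SMAD3 binding at the promoter that increased with TGFβ1. It used peaks fitted along neighbouring probes, and a region mean is a different measure. LTBP3 shares a region of 12512 bp with SSSCA1, with 2 of 8 probes well above background. That region measured -1.72 and -2.11 and then -1.03 and -1.50. Its change of 0.65 ± 0.21 (SE) missed the threshold (limma adjusted p = 0.0524). The change was 0.84 without unstimulated replicate 1 and 0.88 without stimulated replicate 2. The region's mock signal changed by -2.59 and its SMAD3 signal by -1.87, so the ratio rose while SMAD3 signal did not.

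TGFBRAP1 encodes a protein that associates with the TGFβ receptor. Its region with C2orf49 measured -0.11 and -0.06 and then 0.30 and 0.24 and was called higher by 0.36 ± 0.099 (SE, limma adjusted p = 0.0335). That call was lost when any 1 replicate was left out, with changes of 0.33 to 0.38 and adjusted p of 0.0799 to 0.137, and the change was -0.03 over probes within 1000 bp of a start. It rested on 1 of 22 probes, which changed by 8.35, and without it the mean change was -0.024. Neither collagen region passed for a change. COL4A6-COL4A5, the shared promoter of 2 basement membrane collagens, measured -0.58 and -0.75 and then -0.77 and -1.16 (limma adjusted p = 0.192), and 0 of its 3 probes were well above background. COL5A3-RDH8, with a fibrillar collagen, measured -0.04, -0.13, -0.09 and -0.12 (adjusted p = 0.898).

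The other lists, chosen for functions common at divergent promoters, are read against 204 higher and 271 lower of 961 regions. Calls of SMAD3 over mock are read against 76 of the 961 at the basal level (7.91%) and 60 after TGFβ1 (6.24%). The lists were not matched for the distance between the starts, with which these calls moved. Of 19 tested regions with a replication or repair gene, 6 had SMAD3 over mock at the basal level and 2 after TGFβ1, 4 were higher and 9 lower, and the median change was -0.28. ALKBH2-UNG, the pair of a DNA dealkylase and uracil-DNA glycosylase, fell from 0.12 and 0.16 to -2.13 and -1.84, with a mock change of 2.13 and a SMAD3 change of 0.07. TEX14-RAD51C, with a recombination protein, rose from 0.03 and 0.04 by 5.23 ± 0.45 (SE), with 1 of 4 probes well above background on all arrays. ZFYVE26-RAD51L1, with 1 of 6 probes well above background, rose from -2.41 and -2.56 to -0.58 and -0.18. Its mock change was -3.65 and its SMAD3 change -1.48.

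**Figure D5:**
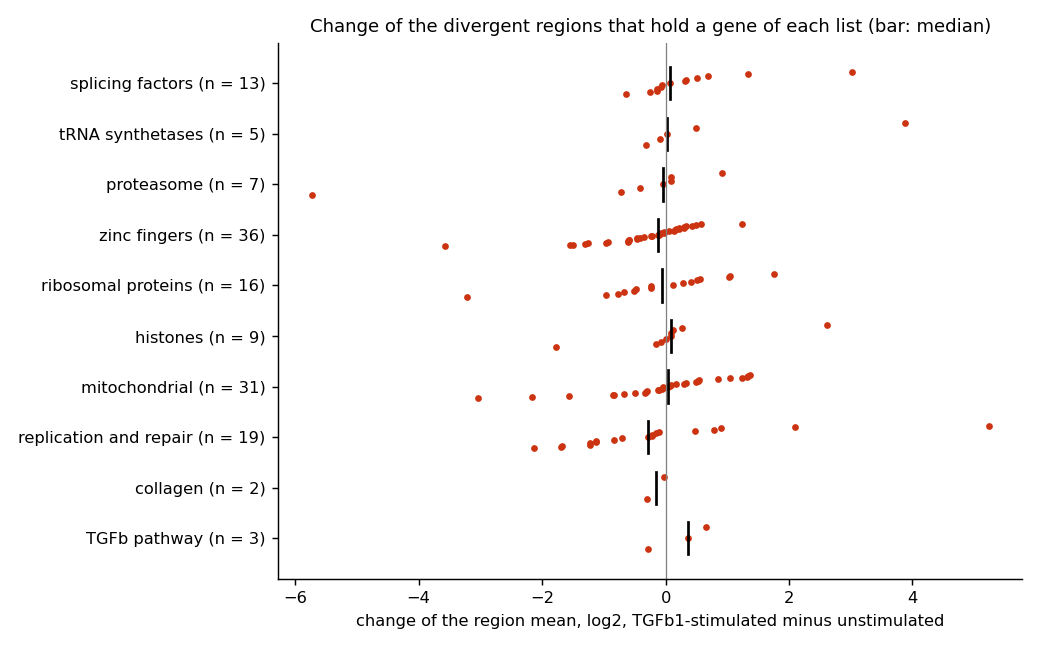
Change of the region mean log2 ratio, TGFβ1-stimulated minus unstimulated, of the tested divergent regions that hold a gene of each list. Each point is 1 region, the bar is the median of the list, and the vertical offset only separates points. The medians lie between -0.28 and 0.36, and single regions reach -5.73 and 5.23.

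Of 31 tested regions with a mitochondrial gene, 2 had SMAD3 over mock at the basal level and 5 after TGFβ1, 8 were higher and 6 lower, and the median change was 0.04. NDUFB8-HIF1AN, with a subunit of respiratory complex I and the inhibitor of hypoxia-inducible factor, fell from -0.51 and -0.41 to -3.57 and -3.42, but 0 of its 11 probes were well above background in both channels. Its mock signal changed by 3.11 and its SMAD3 signal by 0.14. OSCAR-NDUFA3 fell from 0.56 and 0.63 to -1.46 and -1.67, and SLC7A7-MRPL52 from 0.08 and 0.03 to -1.36 and -1.66. Both held a mitochondrial protein gene, of complex I and of the mitochondrial ribosome. Their mock signals changed by 1.71 and 1.53 and their SMAD3 signals by -0.38 and 0.04. In SLC7A7-MRPL52, 3 of 9 probes were well above background.

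Of 36 tested regions with a zinc finger gene, 5 were higher and 15 lower, and the median change was -0.12. ZNF790-ZNF345 fell from 0.05 and 0.12 to -3.69 and -3.27 with 0 of 7 probes well above background in both channels. Its mock signal changed by 5.21 and its SMAD3 signal by 1.71, so the ratio fell while SMAD3 signal did not. FIZ1-ZNF524 fell from 1.16 and 0.97 to -0.68 and -0.29, and GRIK5-ZNF574 from -0.22 and -0.25 to -1.62 and -1.84. Their mock signals changed by 0.36 and 1.08 and their SMAD3 signals by -1.13 and -0.35. Among 16 regions with a ribosomal protein gene, 5 were higher and 5 lower, and the median change was -0.06. RPL22-RNF207 fell from 1.76 and 1.27 to -1.54 and -1.87, and RPL3L-NDUFB10 rose from -0.35 and -0.54 to 0.61 and 0.58. In RPL22-RNF207, 4 of 10 probes were well above background. Its mock signal changed by 2.43 and its SMAD3 signal by -0.90, and those of RPL3L-NDUFB10 changed by -0.89 and 0.22.

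Splicing factor regions numbered 13, of which 5 were higher and 1 lower, with a median change of 0.07. ESCO1-SNRPD1, with 1 of 12 probes well above background, rose from -3.19 and -2.93 to -0.11 and 0.04. LSM12-G6PC3, with 4 of 12, rose from -1.23 and -1.19 to 0.08 and 0.16. Their mock signals changed by -4.47 and -3.02 and their SMAD3 signals by -1.37 and -1.62, so in both the ratio rose while SMAD3 signal did not.

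Of 9 tested histone regions 1 was higher and 1 lower, and 0 were well measured. HIST4H4-H2AFJ rose from -2.51 and -2.63 to 0.10 and 0.00 with a mock change of -3.15 and a SMAD3 change of -0.46. HIST1H1A-HIST1H3A fell from 0.05 and -0.21 to -1.75 and -1.97, with a mock change of 2.63 and a SMAD3 change of 0.74. HIST1H3F-HIST1H2BH did not pass (limma adjusted p = 0.0862). Of 7 proteasome regions 1 was higher and 3 lower, with a median change of -0.03. Beside PSME2-RNF31, PCGF2-PSMB3 rose from -1.27 and -1.22 to -0.40 and -0.28 over 26 probes, and PSMB1-TBP, the pair of a proteasome subunit and the TATA-binding protein, fell from 1.21 and 1.22 to 0.58 and 0.39. The PSMB1-TBP fall rested on 1 of 5 probes, which changed by -4.37, and without it the mean change was 0.18. The mock signals of PCGF2-PSMB3 and PSMB1-TBP changed by -1.28 and 2.20 and their SMAD3 signals by -0.30 and 1.37. Of 5 tRNA synthetase regions 2 were higher and 0 lower, and 0 were well measured. CARS2-ING1 rose from -0.41 and -0.50 to 0.03 and 0.05, and AARS-DDX19B did not pass (limma adjusted p = 0.0763). The CARS2-ING1 call was lost when unstimulated or stimulated replicate 2 was left out (adjusted p = 0.06 and 0.0542).

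The 3 regions with the most probes changed little. ZIC5-ZIC2, the pair of neural zinc finger factors with 54 probes over 10140 bp, measured 0.19 and 0.27 unstimulated and 0.14 and 0.15 stimulated. C1QL4-FLJ13236 measured -0.80, -0.77, -0.33 and -0.61, and TMEM112-SOX8 -1.09, -1.07, -0.91 and -0.92, each over 44 probes. None of the 3 changes passed (limma adjusted p = 0.519, 0.0999 and 0.221).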

How the data were processed

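Per the labels, A549 cells were unstimulated or stimulated with TGFβ1, with 2 biological replicates per condition and 2 slides per replicate. Each spot has 1 intensity per channel, which the authors deposited as given by Agilent Feature Extraction 9.5.1.1 (submitters' processing notes), with SMAD3 IP in Cy5 and mock IP in Cy3. The processed intensities were background-subtracted and scaled per dye by that software, with surrogate values where a signal was not above background. A ratio with 1 dim channel is therefore a bound. Where both channels were dim the ratio bounds nothing and can lie near 0, which draws the region mean towards 0. An example is the probe 2024 bp from the NDRG2 start, with ratios of 0.02 to 0.07. The authors also deposited the log2 ratio of the processed signals, which differed from the recomputed one by at most 3.13e-06. The probe annotation names no genome build, so only chromosomes and distances to starts are given for the arrays.

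Control spots and 1404 outlier probes were left out, the log2 ratio was centred on each array's median (0.24 to 0.72 before centring), and probes with the same gene name and annotation were averaged. The members were probes annotated as divergent promoter. Groups of at least 3 probes were tested with limma 3.58.1 in R 4.3.3 (lmFit and eBayes on all 4 replicates, Benjamini-Hochberg adjustment at 0.05 over 31867 groups), which was tested on simulated data. Level calls also needed a mean ratio over 1.5 in either direction. P-values measure the spread between 2 replicates per condition, and the number of arrays limits their precision. All arrays were scanned on 1 day and each on its own slide, so no batch could be separated.

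The members and gene lists were chosen with earlier results of these data known. Named regions came, unless stated, from a rule: in each direction, the up to 8 called, well measured regions with the largest level or change, the TGFβ and collagen regions, the 3 largest changes of each other list and the 3 regions with the most probes. Some regions of this rule are not reported here. Alternatives were loess, normexp (offset 50), the median of probes, the highest mean of 3 neighbouring probes, filters on dim or distant probes, a minimum of 5 probes or a ratio over 2, promoter groups alone, fits per slide, a replicate block and each replicate left out. Promoter sequences came from RefSeq on GRCh38.p14.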

Additional observations from a re-analysis of the deposited data

How the results depend on the processing

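Counts of called divergent regions moved most with the treatment of dim probes and of the probes within a region. SMAD3 over mock at the basal level was called in 76 regions in the main setting, in 9 with normexp, 150 with loess, 31 with the median of the probes, 263 with the highest mean of 3 neighbouring probes (a choice that picks high probes by construction), 33 of 786 regions with at least 5 probes and 41 with a mean log2 ratio over 1. After TGFβ1 the count was 60, and in the same order of alternatives 36, 151, 28, 239, 28 and 33. With regions of 1 or more probes, an alternative chosen after seeing the data, it was 238 and 213. Higher after TGFβ1 were 204 regions, 44 with normexp, 35 with the median, 132 with 3 neighbouring probes and 134 of 584 with probes well above background in both channels. Lower were 271, and 77, 41 and 178 under the first 3 of these. The difference from single-gene promoters of -0.041 turned to 0.0053 with normexp and 0.020 with loess, was -0.013 over probes well above background and -0.095 over probes within 1000 bp of a start. The difference of 0.39 between compact and wide regions used regions of 1 or more probes. It was 0.59 with loess, 0.11 with normexp and 0.76 over probes well above background, alternatives chosen after seeing the data. The cause of these moves was not tested.

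With 1 replicate left out in turn, where the lone sample is assumed to vary like the other condition, the 4 counts ranged over 73 to 77, 54 to 67, 140 to 177 and 206 to 226. The replicate number as a block gave 77, 60, 216 and 282 regions; replicates share only a number (correlation of deviations 0.13 over divergent regions, 2 pairs). Promoter groups alone, fits per slide and the deposited log2 ratios kept all 4 counts within 1.5 times.

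Of 1143 values of 77 named results under an alternative, 1041 kept direction and side of the threshold, 74 lost the call, 14 gained it and 14 turned. The highest mean of 3 neighbouring probes turned the stimulated level of C1orf109-CDCA8 (0.86), the basal level of HRC-TRPM4 (0.021) and the changes of C1orf109-CDCA8 (0.35), CARS2-ING1 (-0.093), HIST1H1A-HIST1H3A (0.072), PCGF2-PSMB3 (-0.42), PSMB1-TBP (0.24), TGFBRAP1-C2orf49 (-0.48) and TMEM112-SOX8 (-0.96). The median turned the stimulated level (-0.88) and change (-1.11) of LRRC34-LOC344657 and the stimulated level of MAP4K1-EIF3S12 (-0.078). TGFBRAP1-C2orf49 also turned over probes well above background (-0.040) and within 1000 bp (-0.028).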
